A study of Sus scrofa domesticus with 4 samples.

Results

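Solute carriers are the large group of membrane proteins that move sugars, amino acids, ions, metals, vitamins and metabolites across the plasma membrane and the membranes of organelles. The members described here are all pig genes whose symbol starts with SLC and a family number and that a RefSeq mRNA on the array represents, 80 genes with 162 probes among 43603 probes in all. Symbols came from the Sscrofa11.1 RefSeq gene table. The genes were sorted by substrate into sugars, amino acids and peptides, ions, metals, mitochondrial carriers, monocarboxylates and lipids, nucleosides and nucleotide sugars, and a rest of organic ions and vitamins.

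Myometrium, the muscle layer of the uterus, was taken from the middle of the uterine horns of 4 mature gilts (Large White x Polish Landrace, 7 to 8 months and 120 to 130 kg) on days 15 to 16 of gestation, around the time at which pig conceptuses attach. After 2 h of preincubation, slices spent 24 h in culture either untreated or with orexin B at 10 nM, a neuropeptide that binds the orexin receptors, in duplicate in each of 4 experiments. Treated and untreated RNA were hybridised together on 4 Agilent arrays of 2 colours, numbered 1 to 4 here. The labels do not say in so many words that each array is 1 gilt, so p-values cover only how much the 4 arrays differ from each other.

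Ratios are given as log2 of treated over untreated signal, so 0 means equal signal, and the error given with a mean is limma's moderated standard error over the 4 arrays. Orexin B RNA carried the red dye Cy5 on arrays 1 and 3 and the green dye Cy3 on arrays 2 and 4, per the dye fields of each sample, while the labelling text names only the first arrangement. The values in the authors' deposited series table carry the sign of orexin B over untreated on all 4 arrays under the dye fields. Arrays 2, 3 and 4 lay on the same slide with the same scan time, and array 1 on another. Of all probes, between 48.7% and 54.3% were well above background in the treated channel and between 37.6% and 58.2% in the untreated channel, lowest on array 1. All 6 measured smooth muscle markers, desmin (DES) and calponin (CNN1) among them, were above background in the treated channel on all 4 arrays. Explants are mixed tissue, and fewer cells of a type and less RNA per cell cannot be told apart.

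Smooth muscle takes up glucose through facilitative GLUT carriers and runs its ion gradients through exchangers and cotransporters that use the sodium and potassium gradients set by ATP-driven pumps. Amino acids enter by sodium-coupled carriers and leave or exchange through heteromeric carriers made of a heavy and a light subunit. In mitochondria, the SLC25 family carries phosphate, ADP, ATP and other metabolites across the inner membrane.

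Of the 80 genes, 50 had at least 1 probe well above background on all 4 arrays in a channel, which made them testable; 9 more were above background on some arrays and 21 on none. The 50 genes had 87 testable probes. Of these, 67 probes were above background on every array in both channels and 20 on every array with orexin B only; none was so in the untreated channel only. In the representing probes of 14 genes of the second kind, the untreated channel of array 1 was below this limit in all 14. The median log2 ratio was 0.06 for those 14 genes and 0.03 for the 36 genes measured in both channels.

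**Figure D1:**
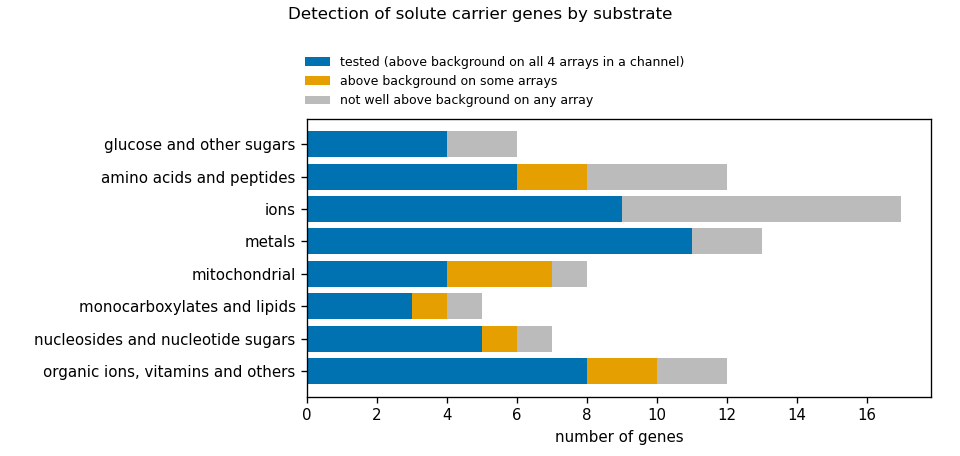
Number of solute carrier genes by substrate (horizontal bars), split into genes with a probe well above background on all 4 arrays in a channel, genes above background on some arrays and genes above background on none. Metal transporters were testable for 11 of 13 genes and ion transporters for 9 of 17.

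After Benjamini-Hochberg adjustment in limma, 0 of 87 solute carrier probes were under 0.05 (smallest adjusted p = 0.596), as were 0.0% of all 19879 tested probes. At an unadjusted p under 0.05 there were 6 solute carrier probes, 6.90% of those tested, against 7.72% of all tested probes; 3 were higher with orexin B, against 4.31% of all tested probes, and 3 lower, against 3.41%. The share of members is near the background and is not a result about them. All 4 arrays had the same sign for 11 of 87 probes, 12.6%, against 16.0% of all tested probes; 6 were above 0 throughout, against 8.92% of all, and 5 below, against 7.08%. With each gene represented by its brightest testable probe, 33 genes had a mean above 0 and 17 below, with a median of 0.03 and a range from -0.46 to 0.32, beside a median of 0.02 over all tested probes. Of the 14 genes that were testable only through the orexin B channel 12 were above 0, and of the 36 genes measured in both channels 21 were above 0 and 15 below (58.3% above). With median centring of each array in place of loess, the split was 26 above and 24 below, and 0 of 87 probes reached the unadjusted threshold against 0.89% of all. The share above 0 was then 52.0% in place of 66.0%, and among all tested probes 49.4% in place of 54.1%. The split was also 26 to 24 without array 3 or without array 4, and 27 to 23 without array 1. The unadjusted count was 3 without array 1, which leaves the arrays of a single slide, and 2 without array 4. By gene, 4 of 50 representing probes reached the unadjusted threshold (SLC9A3R1, SLC38A6, SLC35C1 and SLC30A6), against 10.5% of the 1959 tested genes with a symbol.

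**Figure D2:**
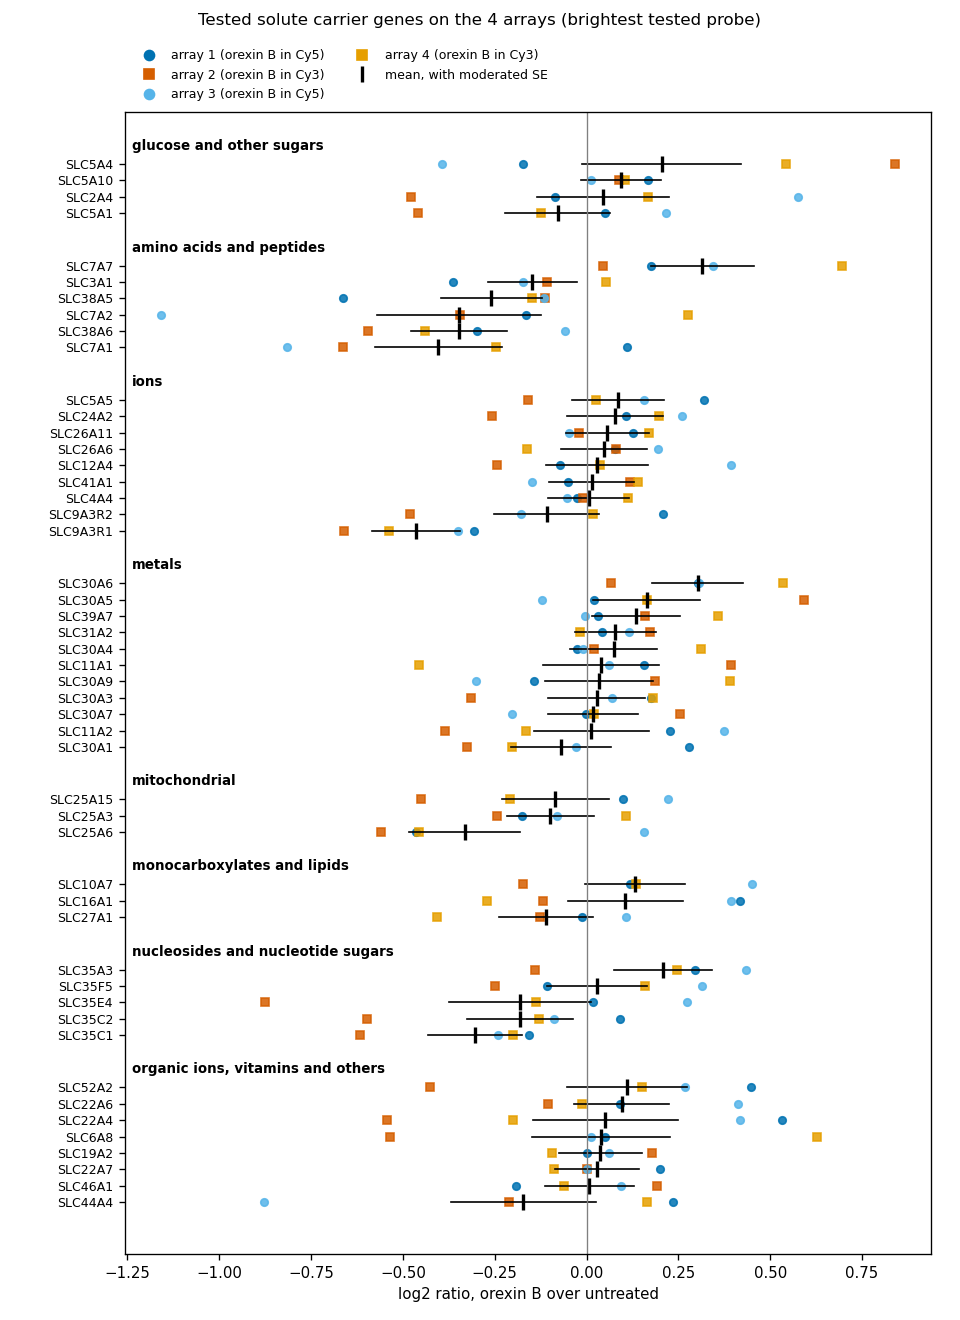
Log2 ratio of orexin B over untreated (horizontal axis) for 49 of the 50 testable solute carrier genes, grouped by substrate and sorted by mean. Circles are arrays with orexin B in Cy5, squares arrays with it in Cy3, and the black mark is the mean with its moderated standard error; most genes lie between -0.5 and 0.5 and straddle 0, and SLC9A3R1 lies below 0 on all 4 arrays.

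Among sugar transporters, 4 of 6 genes were testable and none reached the unadjusted threshold. SLC2A4, the insulin-responsive glucose transporter GLUT4 of muscle and fat, had log2 ratios of -0.08, -0.48, 0.58 and 0.17 on arrays 1 to 4. The arrays therefore disagreed in sign, and the mean was 0.05 ± 0.18. SLC5A1, the sodium-glucose cotransporter SGLT1, had 0.05, -0.46, 0.22 and -0.12, with a mean of -0.08 ± 0.14. SLC5A10, a sodium-coupled carrier of mannose and fructose, was above 0 on all 4 arrays (0.17, 0.09, 0.01 and 0.10) with a mean of 0.09 ± 0.11 (unadjusted p = 0.422). In the untreated channel SLC2A4, SLC5A1 and SLC5A10 were above background on 3 of 4 arrays. SLC5A4, a low-affinity member of the SGLT family, had -0.17, 0.84, -0.39 and 0.54, which is below 0 with orexin B in Cy5 and above 0 with it in Cy3, and its mean was 0.20 ± 0.22. SLC2A2 (GLUT2 of liver and pancreas) and SLC5A11, a myo-inositol cotransporter, were not well above background on any array. The widely expressed GLUT1 and GLUT3 were not analysed here.

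The amino acid and peptide class had the lowest median among the classes, -0.30 over 6 testable genes of 12, with 5 below 0 and 1 above. Its medians on arrays 1 to 4 were -0.23, -0.23, -0.14 and -0.05, all below 0. The class median was -0.20 without array 3. It was -0.07 when genes were taken regardless of background, and at red over green without turning arrays by their dye fields it was -0.09. Without turning, an orexin B effect cancels between the dye orientations, so the -0.09 is no estimate for orexin B.

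SLC7A1, the main carrier of arginine and lysine into cells (CAT-1), had log2 ratios of 0.11, -0.66, -0.81 and -0.25 on arrays 1 to 4. Array 1 was above 0 and the arrays of the shared slide below, with a mean of -0.40 ± 0.17 (unadjusted p = 0.0518, adjusted p = 0.645). It was -0.57 without array 1 (unadjusted p = 0.0151), -0.32 without array 2 (unadjusted p = 0.153) and -0.27 without array 3 (unadjusted p = 0.200). SLC7A2, a second carrier of cationic amino acids (CAT-2), had -0.16, -0.34, -1.16 and 0.28, so that its mean of -0.35 ± 0.22 rested largely on array 3; without array 3 it was -0.08.

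SLC7A7 is the light subunit y+LAT1, which exports cationic amino acids in exchange for neutral ones and is found on epithelia and macrophages. It was the only testable gene of the class with a mean above 0. Its brightest probe had 0.18, 0.04, 0.34 and 0.70 on arrays 1 to 4, above 0 on all 4, with a mean of 0.32 ± 0.14 (unadjusted p = 0.0600). A second probe had 0.28, 0.06, 0.92 and 0.71, with a mean of 0.49 ± 0.17 (unadjusted p = 0.0209, adjusted p = 0.596). The last testable probe had 0.24, -0.22, 0.79 and 0.53, with a mean of 0.33 ± 0.18. The 3 testable probes therefore had the same direction, with array 2 nearest to or below 0 in each. An untestable probe, above background on 3 arrays with orexin B and 2 without, had 0.06, -0.24, 0.79 and 0.19. The brightest probe was 0.19 without array 4 (unadjusted p = 0.259), and the last testable probe 0.18 without array 3 (unadjusted p = 0.361). For the second probe the unadjusted p was 0.0895 without array 3 and 0.0825 without array 4.

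SLC38A6, a member of the sodium-coupled neutral amino acid family, had -0.30, -0.59, -0.06 and -0.44 at its brightest probe. All arrays were below 0, with a mean of -0.35 ± 0.13 (1.27-fold lower, unadjusted p = 0.0315, adjusted p = 0.621). The unadjusted p was above 0.05 without array 1, 2 or 4 (0.0756, 0.0857 and 0.106). Its other testable probe had -0.10, -0.42, -2.97 and -0.21. The 2 testable probes had the same sign but not the same size on array 3, and the second had a mean of -0.93 ± 0.46, which was -0.24 without array 3 and -1.18 with Agilent's processed signals (unadjusted p = 0.0277). Of the gene's 4 probes, the untestable ones were above background on 3 arrays with orexin B and 2 without. They had -0.15, -0.25, 0.24 and -0.15, and 0.10, -0.21, 0.11 and 0.00 on arrays 1 to 4. SLC38A5, a glutamine, histidine and asparagine carrier, had -0.66 on array 1 and between -0.15 and -0.11 on the others, with a mean of -0.26 ± 0.14; without array 1 it was -0.13. SLC3A1, the heavy subunit rBAT, had -0.36, -0.11, -0.17 and 0.05 (mean -0.15 ± 0.12), and its second probe had a mean of -0.18 ± 0.14. SLC7A9, the light subunit that pairs with rBAT, SLC7A3, the glutamate carrier SLC1A3 and the peptide carrier SLC15A2 were not well above background on any array. The glutamate carrier SLC1A1 was so on 1 array in each channel, and the intestinal peptide carrier SLC15A1 on 1 array with orexin B.

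Of 17 ion transporter genes 9 were testable, 7 above 0 and 2 below, with a median of 0.03. The split stayed 7 to 2 without array 1 or 2, and was 5 to 4 with median centring or without array 3 or 4. With loess on all 4 arrays, the 2 below 0 were the scaffold proteins SLC9A3R1 and SLC9A3R2 (NHERF1 and NHERF2). They carry the SLC name because they tether the sodium/proton exchanger NHE3 to the cytoskeleton and transport nothing themselves. SLC9A3R1 had -0.31, -0.66, -0.35 and -0.54 on arrays 1 to 4. All arrays lay below 0, between -0.66 and -0.31, in both dye orientations. The mean was -0.46 ± 0.12, 1.38-fold lower, with the smallest p of the solute carrier probes (unadjusted p = 0.00589, adjusted p = 0.596 in limma over all probes). It kept an unadjusted p under 0.05 in 11 of 12 other settings that keep the dye fields, without each array in turn included, and was -0.47 with an unadjusted p of 0.235 under median centring. These settings overlap and are not separate support. A stricter filter, no filter and a dye term left the mean at -0.46. These settings cannot change the mean of a probe with values on all 4 arrays, so this is no test of it. The deposited series table repeated the -0.58 of Agilent's processed signals. SLC9A3R2 had 0.21, -0.48, -0.18 and 0.02, with a mean of -0.11 ± 0.14, so that it did not follow SLC9A3R1 on arrays 1 and 4.

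The 7 ion transporters themselves had means between 0.01 and 0.09, each within 1 standard error of 0. With Agilent's processed signals SLC24A2 was 0.58 (unadjusted p = 0.0695), SLC4A4 0.34 (unadjusted p = 0.083) and SLC5A5 0.33 (unadjusted p = 0.173). SLC12A4, the potassium-chloride cotransporter KCC1, had -0.07, -0.25, 0.39 and 0.04 (mean 0.03 ± 0.14). SLC4A4, the sodium-bicarbonate cotransporter NBCe1, stayed between -0.05 and 0.11 (mean 0.01 ± 0.11), and the magnesium carrier SLC41A1 between -0.15 and 0.14 (mean 0.01 ± 0.12). The chloride and bicarbonate exchanger SLC26A6 had 2 testable probes with means of 0.05 ± 0.12 and 0.06 ± 0.11. The other ion transporters tested were SLC26A11, the sodium/calcium-potassium exchanger SLC24A2 and the iodide symporter SLC5A5, with means of 0.06, 0.08 and 0.09. SLC24A2 was above background in the untreated channel on 2 of 4 arrays, and SLC4A4, SLC41A1 and SLC5A5 on 3. The sodium/proton exchanger SLC9A2, the anion exchangers SLC26A3, SLC26A4 (pendrin) and SLC26A5, and the phosphate carriers SLC34A1, SLC34A2 and SLC17A1 were not well above background on any array, so no ratio is given.

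Of 13 metal transporter genes 11 were testable, 10 with a mean above 0 and 1 below. The median was 0.04, close to the 0.02 of all tested probes. The split was 8 to 3 with median centring, 7 to 4 without array 1 or without array 4, and 8 to 3 without array 2. Most zinc carriers of the ZnT family (SLC30) move zinc out of the cytosol, and ZIP carriers (SLC39) into it. SLC30A6, a ZnT family member of the secretory pathway, had 0.30, 0.07, 0.31 and 0.54, above 0 on all arrays, with a mean of 0.30 ± 0.12 (1.23-fold higher, unadjusted p = 0.0439, adjusted p = 0.637). Its second probe had 0.13, -0.31, 0.55 and 0.36, with a mean of 0.18 ± 0.16. The first probe's unadjusted p was 0.058 when both channels had to be above background on all arrays, 0.071 with Agilent's processed signals, and 0.114, 0.0998 and 0.183 without arrays 1, 3 and 4.

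SLC30A5, another ZnT family member of the secretory pathway, had means of 0.16 ± 0.15 and 0.20 ± 0.12 at its 2 probes, the first with -0.12 on array 3 and 0.59 on array 2. SLC39A7, the ZIP carrier that releases zinc from the endoplasmic reticulum, had 4 testable probes with means of 0.14, 0.16, 0.15 and 0.04. On arrays 1 and 4 all 4 of these probes were above 0, and on arrays 2 and 3 they split 2 and 2. SLC30A1, the zinc exporter of the plasma membrane, had 0.28, -0.33, -0.03 and -0.20, with a mean of -0.07 ± 0.14, and its second probe had -0.08 ± 0.12. The other ZnT genes (SLC30A3, SLC30A4, SLC30A7 and SLC30A9) had means between 0.02 and 0.07, and the copper carrier SLC31A2 had 0.08 ± 0.11. SLC30A4 was 0.58 with Agilent's processed signals (unadjusted p = 0.0356), where its untreated channel was above background on 2 of 4 arrays. The copper importer SLC31A1 and the zinc exporter SLC30A2 were not well above background on any array.

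SLC11A1 (NRAMP1) pumps iron and manganese out of the phagosomes of macrophages. Its brightest probe had 0.16, 0.39, 0.06 and -0.46 on arrays 1 to 4, with a mean of 0.04 ± 0.16. The second probe had 0.46, 0.37, 0.10 and 0.36, above 0 on all arrays, with a mean of 0.32 ± 0.12 (unadjusted p = 0.0292, adjusted p = 0.614). The probes matched in sign on arrays 1 to 3 and differed by sign on array 4, so the gene's direction is uncertain. The second probe's unadjusted p was 0.122, 0.0542 and 0.0927 without arrays 1, 2 and 4. SLC11A2 (DMT1), which carries iron into most cells, had 0.23, -0.38, 0.38 and -0.17, above 0 with orexin B in Cy5 and below 0 with it in Cy3 (mean 0.01 ± 0.16).

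**Figure D3:**
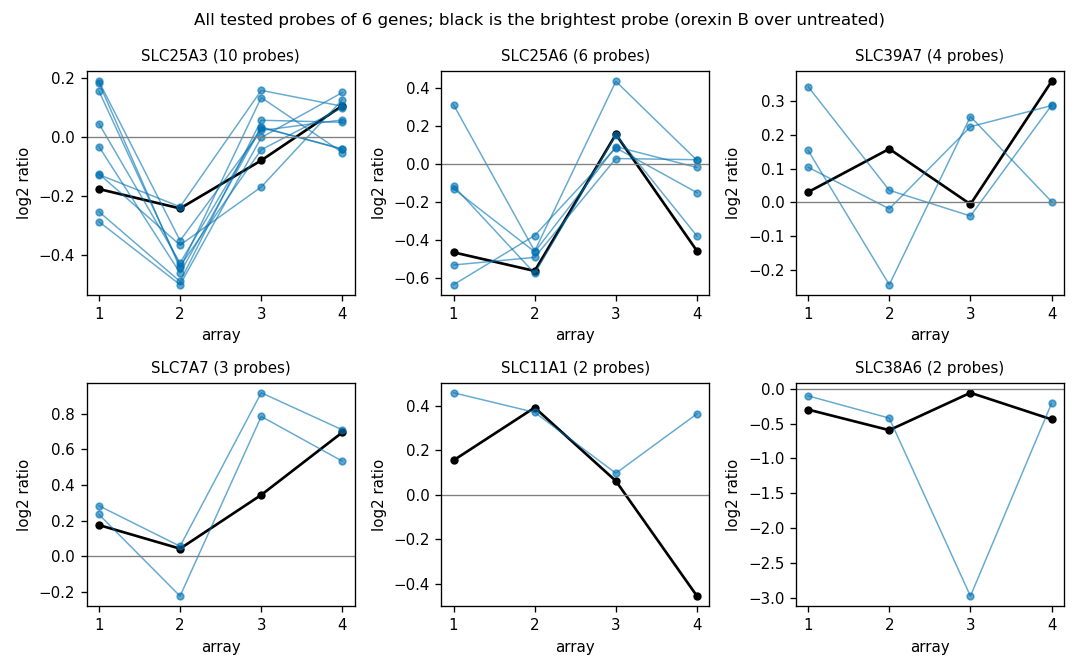
Log2 ratio of orexin B over untreated (vertical axis) on each array (horizontal axis; arrays have no order) for every testable probe of 6 genes; a line joins the values of 1 probe, and black is the brightest probe. The 10 SLC25A3 probes are all lowest on array 2, whereas the 2 probes of SLC11A1 part on array 4 and those of SLC38A6 on array 3.

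Of 8 genes of mitochondrial carriers, 4 were testable, 1 above 0 and 3 below, with a median of -0.09. Their medians on arrays 1 to 4 were -0.04, -0.35, 0.11 and -0.05. SLC25A3, which brings phosphate into mitochondria for ATP synthesis, was measured by 10 probes. On array 2 all 10 were below 0, from -0.50 to -0.24. On array 1 they ran from -0.29 to 0.19, on array 3 from -0.17 to 0.16 and on array 4 from -0.05 to 0.15. The means of the 10 probes lay between -0.16 and -0.02, and the brightest had -0.10 ± 0.12 (unadjusted p = 0.431). Array 2 was therefore low at all 10 probes while the other arrays lay around 0.

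SLC25A6 encodes an ADP/ATP carrier, which trades mitochondrial ATP for cytosolic ADP. It has near-identical relatives in the SLC25 family, and cross-hybridisation between them was not tested. Its brightest probe had -0.46, -0.56, 0.16 and -0.46 on arrays 1 to 4, with a mean of -0.33 ± 0.15 (unadjusted p = 0.0638, adjusted p = 0.655). Array 3 was above 0 at all 6 probes, from 0.03 to 0.43, and array 2 below 0 at all 6, from -0.57 to -0.38. Of the 6 probes, 5 had a mean below 0, from -0.33 to -0.13, and 1 a mean of 0.08 ± 0.17. The brightest probe was -0.49 without array 3 (unadjusted p = 0.0108), and between -0.29 and -0.25 without array 1, 2 or 4 (unadjusted p = 0.183, 0.172 and 0.177). The mean over all 6 probes was -0.19. SLC25A15, the ornithine carrier of the urea cycle, had 0.10, -0.45, 0.22 and -0.21 (mean -0.08 ± 0.15). SLC25A23 was above background on up to 3 arrays in each channel, SLC25A24 on 2 and SLC25A27 on 1. SLC25A25 was so on none.

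Among carriers of monocarboxylates and lipids, SLC16A1 (MCT1, which moves lactate and pyruvate with protons) had 0.42, -0.12, 0.39 and -0.27 at its brightest probe. The sign followed the dye orientation, and the mean was 0.11 ± 0.16. Its other probes had means of 0.03 ± 0.12 and 0.13 ± 0.14. The fatty acid transport protein SLC27A1 had -0.01, -0.13, 0.11 and -0.41 (mean -0.11 ± 0.13, and -0.37 with Agilent's processed signals), and SLC10A7 had 0.12, -0.17, 0.45 and 0.13 (mean 0.13 ± 0.14). In the untreated channel the brightest SLC16A1 probe and SLC10A7 were above background on 3 of 4 arrays, with array 1 below this limit. The other SLC16A1 probes were so on 3 and 2 arrays. SLC27A2 was above background on 3 arrays with orexin B and 2 without, and the ileal bile acid carrier SLC10A2 on none.

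Nucleotide sugar carriers of the Golgi (SLC35) supply activated sugars for the glycosylation of proteins. SLC35C1, which carries GDP-fucose, had -0.16, -0.62, -0.24 and -0.20 on arrays 1 to 4. All arrays were below 0, array 2 furthest, with a mean of -0.30 ± 0.13 (1.23-fold lower, unadjusted p = 0.0480, adjusted p = 0.645). This p was above 0.05 without any one of the 4 arrays (0.0727, 0.125, 0.0868 and 0.0824 without arrays 1 to 4), and the mean was -0.20 without array 2. Its relative SLC35C2 had 0.09, -0.60, -0.09 and -0.13 (mean -0.18 ± 0.14), and SLC35E4 had 0.02, -0.87, 0.27 and -0.14 (mean -0.18 ± 0.19). The UDP-N-acetylglucosamine carrier SLC35A3 had 0.30, -0.14, 0.43 and 0.25 (mean 0.21 ± 0.13), while its second probe had a mean of -0.01 ± 0.17. SLC35F5 had means of 0.03 ± 0.13 and 0.24 ± 0.14 at its 2 probes. All 5 representing probes of SLC35 genes were at their lowest on array 2, where the class median was -0.60. SLC35A4 was above background on 1 array in the untreated channel, and the nucleoside carrier SLC28A1 on none.

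The remaining class of organic ion and vitamin carriers had 8 testable genes, 7 above 0 and 1 below, with a median of 0.04. The split was 4 to 4 without array 1, 6 to 2 without array 4, and 5 to 3 with median centring or without array 2 or 3. In the untreated channel SLC22A7 and SLC46A1 were above background on 3 of 4 arrays. SLC22A4, which carries ergothioneine (OCTN1), had 0.53, -0.54, 0.42 and -0.20, again opposite between dye orientations, with a mean of 0.05 ± 0.20. SLC6A8, the creatine carrier of muscle, had 0.05, -0.53, 0.01 and 0.63 (mean 0.04 ± 0.19). The thiamine carrier SLC19A2 and the folate carrier SLC46A1 had means of 0.04 ± 0.11 and 0.01 ± 0.12, and SLC46A1 was -0.36 with Agilent's processed signals (unadjusted p = 0.166). The organic anion carriers SLC22A6 and SLC22A7 had 0.10 ± 0.13 and 0.03 ± 0.11, and the riboflavin carrier SLC52A2 had 0.11 ± 0.16, -0.09 ± 0.13 and -0.02 ± 0.16 at its 3 probes. SLC22A8 and SLC22A13 were not well above background on any array, and SLC22A2 and SLC23A2 were so on 1.

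SLC44A4, a choline transporter-like protein of epithelia, was the gene below 0 in this class. Its 3 probes had 0.24, 0.03 and -0.09 on array 1, -0.21, -0.20 and -0.39 on array 2, -0.88, -1.48 and -1.02 on array 3, and 0.16, 0.45 and 0.22 on array 4. All 3 probes were thus lowest on array 3 and highest or next to highest on array 4, with means of -0.17 ± 0.20, -0.30 ± 0.29 and -0.32 ± 0.20. Without array 3 the brightest probe was 0.06.

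Marker genes of cell types had ratios that varied between the arrays, and none had an adjusted p under 0.05 in limma. Of 9 epithelial markers 3 were testable. EPCAM had 0.24, -0.26, -2.69 and 1.11 on arrays 1 to 4, KRT8 had 0.43, -0.65, -1.49 and 0.67, and SPP1, which macrophages also make, had 0.64, 0.43, -0.16 and 1.21. Array 3 was the lowest for all 3 markers and array 4 the highest. The summed normalised intensity of the 3 ran from 7170 to 12100 with orexin B and from 5000 to 12500 without. SLC44A4, SLC7A2 and the second probe of SLC38A6 were also lowest on array 3, and the part of epithelial RNA in their values was not tested. Being lowest there was not particular to them, as SLC7A1 (-0.81), SLC5A4 (-0.39) and SLC30A9 (-0.30), among others, were so too. The epithelial markers CDH1 and CLDN4 were above background on some arrays but not testable.

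Of 11 macrophage and monocyte markers, 8 were testable. Their medians were 0.69, 0.08, 0.90 and 0.77 on arrays 1 to 4, and their summed normalised intensity ran from 7130 to 17100 with orexin B and from 4290 to 10100 without. AIF1, which binds calcium and actin in macrophages, had 0.36, 0.45, 0.86 and 0.86, and the complement chain C1QB had 0.80, 0.23, 1.82 and 1.08. Both were among the 3 of 8 markers above 0 on all arrays. On array 2, CD14, C1QA, C1QC and TYROBP were below 0 (-0.55, -0.235, -0.10 and -0.03), and CD163 had -0.03 on array 1. All 3 testable SLC7A7 probes were lowest on array 2, where the macrophage median was lowest too, whereas neither SLC11A1 probe was. A low on array 2 was not particular to SLC7A7. The median of all 50 testable solute carrier genes was 0.05, -0.17, 0.06 and 0.03 on arrays 1 to 4. The part of macrophage RNA in the SLC7A7 values was not tested.

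The 6 measured smooth muscle markers of a list of 10 had medians of -0.05, -1.15, 0.25 and -1.32 on arrays 1 to 4. These medians were below 0 by a wide margin on arrays 2 and 4, the arrays with orexin B in Cy3. The summed normalised intensity of the 6 markers ran from 228000 to 629000 with orexin B and from 398000 to 812000 without. The split was not particular to smooth muscle. The 4 measured fibroblast and stroma markers had medians of -0.016, -0.724, -0.002 and -0.766 on arrays 1 to 4. The brightest probes of SLC9A3R1 and SLC38A6 were also lowest on arrays 2 and 4, whereas the brightest SLC25A3 probe was lowest on array 2 and above 0 on array 4. Lows on arrays 2 and 4 were not particular to SLC9A3R1 and SLC38A6. Brightest testable probes of SLC5A1, SLC11A2, SLC22A4 and SLC35E4, among others, had them too. The part of smooth muscle RNA in these values was not tested.

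**Figure D4:**
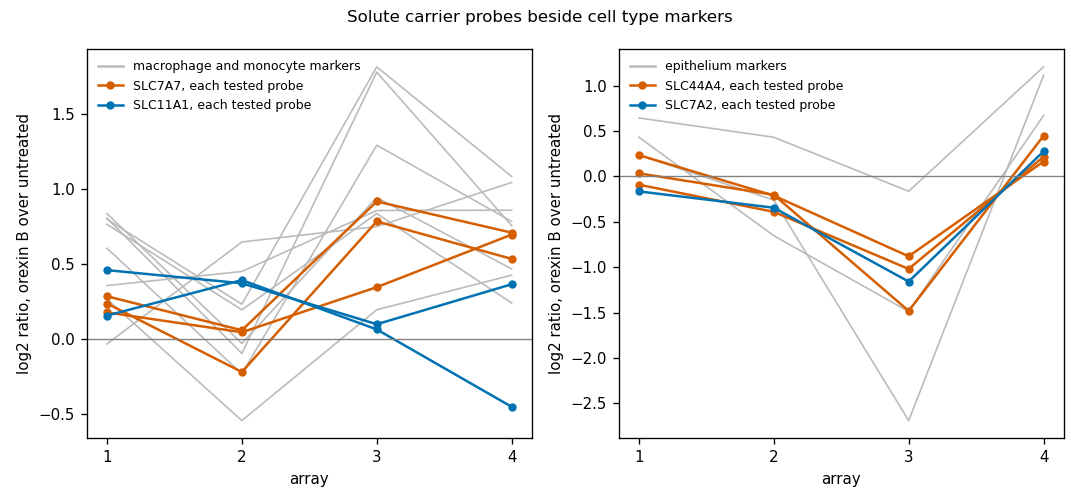
Log2 ratio of orexin B over untreated (vertical axis) on each array (horizontal axis; arrays have no order) for all testable probes of SLC7A7 and SLC11A1 beside 8 macrophage and monocyte markers (left) and of SLC44A4 and SLC7A2 beside 3 epithelial markers (right); a line joins the values of 1 probe. On array 3 SLC44A4 and SLC7A2 lie between -1.48 and -0.88, where EPCAM is at -2.69.

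With dye as a further term in limma, 4 of 87 solute carrier probes had an unadjusted p under 0.05 for dye, 4.60%, against 12.5% of all tested probes. The dye part was -0.49 ± 0.12 for SLC5A4 (limma, unadjusted p = 0.00489) and 0.42 ± 0.12 for SLC22A4 (unadjusted p = 0.00947). It was 0.30 for SLC16A1 and 0.29 for SLC11A2. In this fit 7 probes had an unadjusted p under 0.05 for orexin B, 8.05%, against 2382 of the 19879 tested probes, or 12%. SLC9A3R1 was again lowest in p (-0.46, unadjusted p = 0.00399).

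**Figure D5:**
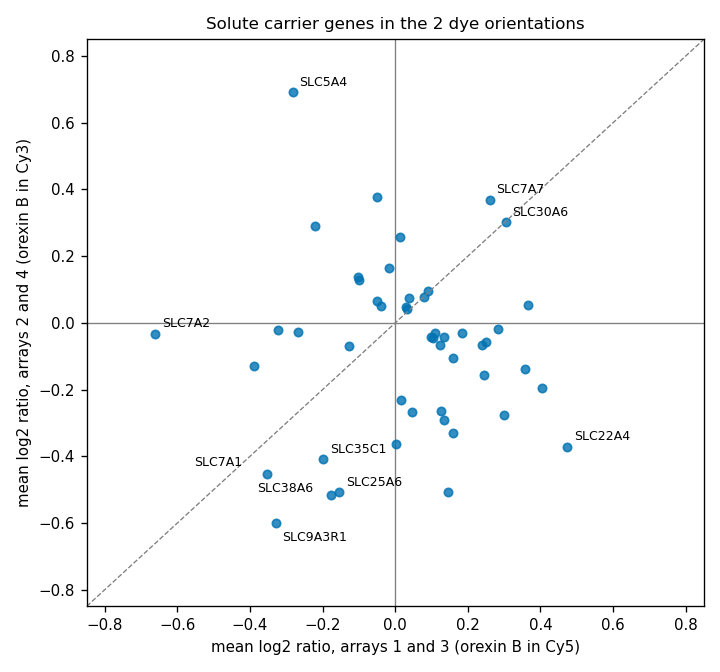
Mean log2 ratio on arrays 1 and 3, with orexin B in Cy5 (horizontal axis), against the mean on arrays 2 and 4, with orexin B in Cy3 (vertical axis), for 49 of the 50 testable solute carrier genes; the dashed line marks equal values. SLC9A3R1 lies below 0 on both axes, while SLC5A4 and SLC22A4 lie on opposite sides of 0.

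Genes that work with the carriers were few on the array. Of 25 partner genes 11 were testable, 4 above 0 and 7 below, with a median of -0.08; 1 reached an unadjusted p under 0.05, where 10.5% of all tested genes with a symbol did. This was TXNIP, which promotes the removal of glucose transporters from the cell surface, with 0.04, 1.41, 0.31 and 0.83 on arrays 1 to 4 and a mean of 0.65 ± 0.22 (unadjusted p = 0.0232, adjusted p = 0.596). All arrays were above 0, array 1 only just. BSG (basigin), the chaperone that brings monocarboxylate carriers to the membrane, had -1.07 on array 2 and between -0.10 and 0.20 on the others. The zinc-binding metallothionein MT1A had -2.32 on array 3 and between -0.19 and 0.55 on the others. The hexokinases HK1 and HK2, which trap glucose in the cell, had means of -0.24 ± 0.12 and 0.10 ± 0.14.

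Of 21 genes in the list of ATP-driven ion pumps and their regulators, 6 were testable, 4 above 0 and 2 below, with a median of 0.04 and 0 past the unadjusted threshold. ATP1B1, a subunit of the sodium pump, had 0.70, 0.76, -0.33 and -0.27, and the plasma membrane calcium pump ATP2B1 had 0.49, 0.55, -0.34 and 0.66. Both were below 0 on array 3. ATP2A2, the calcium pump of the sarcoplasmic reticulum, had a mean of -0.14 ± 0.13. Of 15 genes of the amino acid response 3 were testable, 2 above 0 and 1 below, and none reached the unadjusted threshold. ATF4, the transcription factor that this response acts through, had 0.76, -0.22, -0.36 and 0.55, and its target DDIT3 had 0.17, -0.06, 0.55 and 0.82 (mean 0.37 ± 0.17, unadjusted p = 0.0610). VLDLR, the gene below 0, had -0.56, -0.18, 0.50 and -0.48 (mean -0.18 ± 0.19).

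Where a gene had several testable probes, the probes mostly had the same direction. Of 18 such solute carrier genes, 15 had means of 1 sign at all testable probes. SLC25A6, SLC35A3 and SLC52A2 had probes on either side of 0, and none of the probes of these 3 genes reached the unadjusted threshold.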

How the data were processed

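Total RNA of treated and untreated slices, labelled at 825 ng of cRNA per dye, was hybridised to 4 arrays of 2 colours, per the labels' protocols. The deposited scanner files hold spot and local background intensity values, and their headers name Feature Extraction 10.7.3.1 from Agilent as the scanner software. A log10 ratio (red to green) is deposited with them. The deposited series table holds log2 ratios: 100% of its values matched the scanner files' processed signals within 0.01, with the sign turned on arrays 2 and 4, and its column medians were -0.27, -0.08, -0.20 and -0.09, so no further centring was found.

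Median signals were corrected with normexp (offset 50) and normalised with loess, in which control spots had weight 0 (limma 3.58.1 under R 4.3.3). Outlier spots (31 to 138 per array) were left out. No probe was saturated. A probe was tested if well above background on all 4 arrays in a channel with values on at least 3 arrays, which kept 19879 of 43603. An intercept model was fitted with lmFit and eBayes on the ratios turned by the dye fields, with p-values (two-sided) adjusted over the whole set of tested probes by Benjamini-Hochberg. RefSeq accessions matched 6700 probes. The number of arrays limits the precision.

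Members, substrate classes, partner and marker lists were chosen with earlier results of these data known. The genes named were a set list, up to 3 genes in each direction per class past an unadjusted p of 0.05, genes with probes of opposite sign past it, genes known only by a bound, and the 2 with the largest difference between dye orientations; the remaining testable members were added for completeness after their values were seen. No gene was known only by a bound. The values of 2 member genes are not reported here, although counts and medians include them. Of the marker lists, smooth muscle (6 measured) had a median of -0.50, fibroblast (4) of -0.41, endothelium (3) of 0.31, T and NK cells (2) of 0.10, neutrophils (2) of 0.32 and trophoblast (4) of 0.37; no erythroid gene was measured. The fit was tested on simulated data. Other settings covered background, normalisation, filter, value source, dye, slide, probe choice and each array left out. Figures used Python 3.11.15 and matplotlib 3.10.9.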

Additional observations from a re-analysis of the deposited data

Results flagged for a closer look

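Of 87 testable solute carrier probes examined for an array far from the other 3, 5 were found, where chance gives about 4.35. SLC38A5 had a log2 ratio of -0.66 on array 1 against -0.15 to -0.11 on the others. A SLC25A3 probe had -0.46 on array 2 against -0.04 to 0.03, although the remaining probes of this gene were low on array 2 as well. The brightest SLC25A6 probe had 0.16 on array 3 against -0.56 to -0.46. The second SLC38A6 probe had -2.97 on array 3 against -0.42 to -0.10, where the gene's brightest probe had -0.06. The brightest SLC30A4 probe had 0.31 on array 4 against -0.03 to 0.02.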

How the results depend on the processing

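The count of solute carrier probes at an unadjusted p under 0.05 was 6. It was 0 with median centring in place of loess and 16 with slide as a random block, where the estimated within-slide correlation was negative (-0.259) and 21.5% of all probes reached the threshold; without 1 replicate it ran from 2 to 8. The adjusted count was 0 in every setting run. The median of the amino acid class (-0.30) was -0.071 without a filter, -0.087 for red over green without turning, and -0.307 to -0.203 without 1 replicate. The mitochondrial class was 0.14 without turning. The other class medians, and the median of all genes, moved by less than the spread of their array medians in each setting run, although some crossed 0, such as nucleotide sugars at 0.05 without replicate 2. Without turning, an orexin B effect cancels between the dye orientations. Such values hold the dye part and are not another estimate for orexin B, the class medians included. They were 0.14 for SLC9A3R1, 0.17 for SLC38A6, 0.11 for SLC35C1, -0.045 for the second SLC11A1 probe and -0.49 for SLC5A4 (limma, unadjusted p = 0.00989). The last repeats the dye part given above. The causes were not tested. Each ratio already pairs treated with untreated RNA within an array. No further pairing was possible, because the 4 arrays form 1 group with no other group to block. With Agilent's processed signals 12 of the 87 tested probes, none called in either setting, moved by more than the spread between arrays. Signal over background limits the 30 genes with no testable probe.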
